A study of Mus musculus with 4 samples.

Results

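The 8 genes described here, which hold back the cell cycle or report on p53, were followed through the bleomycin-injured mouse lung: 5 inhibitors of cyclin-dependent kinases (*Cdkn1a*, *Cdkn1b*, *Cdkn1c*, *Cdkn2a* and *Cdkn2b*), the secreted stress factor *Gdf15*, and the pair *Trp53* and *Mdm2*. They are 8 of the 32286 genes in the count tables and were taken by name. The single-cell RNA-seq came from 2 WT and 2 Tubb3-/- mice aged 8 to 11 weeks, killed 14 days after 0.8 U/kg bleomycin was given into the trachea. Tubb3-/- mice carried 2 copies of a *Tubb3*-Cre allele, in which Cre sits in frame at the start of *Tubb3* translation and disrupts the gene in the whole animal, and the WT mice were their littermates. The lung of each mouse was sequenced once as all cells and once after mural cell enrichment, and all 4 mice received bleomycin, so no value here describes an uninjured lung.

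The proteins of the Cip/Kip group (from *Cdkn1a*, *Cdkn1b* and *Cdkn1c*) bind several cyclin-CDK complexes, whereas the INK4 proteins (from *Cdkn2a* and *Cdkn2b*) bind CDK4 and CDK6 and so keep the retinoblastoma protein active. *Trp53* encodes the p53 transcription factor, whose protein level is set mainly by degradation, and *Mdm2* encodes the ubiquitin ligase that degrades it. *Mdm2*, *Cdkn1a* and *Gdf15* are textbook targets of p53, although *Cdkn1a* and *Gdf15* also answer to other stress signals. In lung injury these genes are known from alveolar repair and as markers of arrested or senescent cells.

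Of 30860 cells within the limits on genes and mitochondrial UMIs, 15649 (50.7%) carried a marker of exactly 1 of 6 lineages. The markers, each at 1 or more UMIs, were *Ptprc* (immune), *Cdh5* (endothelial), *Epcam* (epithelial), *Msln* (mesothelial), *Higd1b* or *Myh11* (mural) and *Pdgfra* (fibroblast). Cells with markers of several lineages (14442, 46.8%) or of none (769) were left out. This gave 3792 fibroblasts, 4541 mural, 4389 immune, 2282 endothelial, 321 epithelial and 324 mesothelial cells, with only 72 to 87 epithelial and 73 to 102 mesothelial cells per mouse. UMIs were summed per mouse and lineage, and each sum held 1004521 to 21233601 UMIs. Other markers of each lineage were highest where the label places them, but the 5 fibroblast markers together also reached 2311 to 4631 CPM (UMIs per 1000000 UMIs of the sum) in mural and 3522 to 6204 CPM in mesothelial sums, against 6347 to 11166 CPM in fibroblasts. Red blood cell RNA ranged from 33.1 to 4587 CPM between endothelial sums, and epithelial markers from 700 to 1763 CPM between mesothelial sums. The airway gene *Scgb1a1* held 11528 CPM in WT 2 mesothelial cells and 179 to 275 CPM in the other mice. In endothelial cells it held 5504, 779, 638 and 3973 CPM in WT 1, WT 2, Tubb3-/- 1 and Tubb3-/- 2. The part of such RNA in the results was not tested. *Tubb3*, summed over all cells, was 4.06 and 2.42 CPM in WT and 0.568 and 0.539 CPM in Tubb3-/- mice. No barcode was shared by mice of 1 pool, and 59 barcodes occurred in both pools.

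*Cdkn2a* and *Cdkn2b* are neighbors on chromosome 4, *Cdkn2a* at chr4:89274471-89294653 and *Cdkn2b* at chr4:89306299-89311039, both on the minus strand (GRCm38, GENCODE M21). *Cdkn2a* has 2 start sites, and the transcripts from them share their 3′ exons, so that 3′ counts do not tell p16INK4a from p19ARF RNA. Since both genes were higher in the same fibroblasts, as given further on, their promoters are shown here, from 250 bases before to 50 bases after each start in RefSeq (GRCm38.p6), with the GC-box letters GGGCGG (either strand) in capitals. The upstream *Cdkn2a* window (chr4:89294570-89294869) held 3 matches and was 77.0% G or C, while the downstream *Cdkn2a* window (chr4:89282143-89282442) and the *Cdkn2b* window (chr4:89310983-89311282) held 1 match each, at 60.3% and 57.7%. The same letters were present in 11714 of 32851 promoter windows (35.7%).
*Cdkn2a*, upstream start: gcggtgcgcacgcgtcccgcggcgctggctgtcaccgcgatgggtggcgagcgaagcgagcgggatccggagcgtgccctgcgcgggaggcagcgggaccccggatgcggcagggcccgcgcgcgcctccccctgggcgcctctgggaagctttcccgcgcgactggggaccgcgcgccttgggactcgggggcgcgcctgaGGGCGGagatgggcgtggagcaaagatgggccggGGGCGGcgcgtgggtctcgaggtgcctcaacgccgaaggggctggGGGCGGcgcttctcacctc
*Cdkn2a*, downstream start: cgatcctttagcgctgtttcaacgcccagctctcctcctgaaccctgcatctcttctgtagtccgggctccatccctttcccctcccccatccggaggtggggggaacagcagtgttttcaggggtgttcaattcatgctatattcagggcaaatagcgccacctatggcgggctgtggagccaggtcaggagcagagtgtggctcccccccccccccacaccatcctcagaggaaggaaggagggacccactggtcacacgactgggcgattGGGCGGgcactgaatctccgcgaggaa
*Cdkn2b*: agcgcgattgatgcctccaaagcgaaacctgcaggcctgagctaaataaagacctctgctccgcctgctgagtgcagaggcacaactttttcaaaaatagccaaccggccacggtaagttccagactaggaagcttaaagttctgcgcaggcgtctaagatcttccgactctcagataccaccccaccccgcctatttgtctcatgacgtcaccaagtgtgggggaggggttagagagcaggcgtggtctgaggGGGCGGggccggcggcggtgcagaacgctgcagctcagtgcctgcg

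All 8 genes gave UMIs in each lineage, and each showed its own pattern across the lineages (values by mouse are plotted for every gene and lineage). Levels are CPM, as the mean ± SD over the 4 mice, and the lineage tests set 1 lineage against the mean of the other 5 in edgeR (quasi-likelihood test, mouse as a block, Benjamini-Hochberg adjusted p under 0.05 for a call). A gene was called easily in these contrasts: 57.3% of 16365 genes tested were called for the epithelial contrast, 60.8% for endothelial, 59.5% for mural, 58.4% for fibroblast, 75.2% for immune and 41.2% for mesothelial cells. Against those shares, 8 of 8 genes were called in epithelial cells, 4 in endothelial, 6 in mural, 3 in fibroblasts, 6 in immune and 5 in mesothelial cells. In fibroblasts, endothelial and immune cells the count was thus no larger a share than that of all genes.

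**Figure D1:**
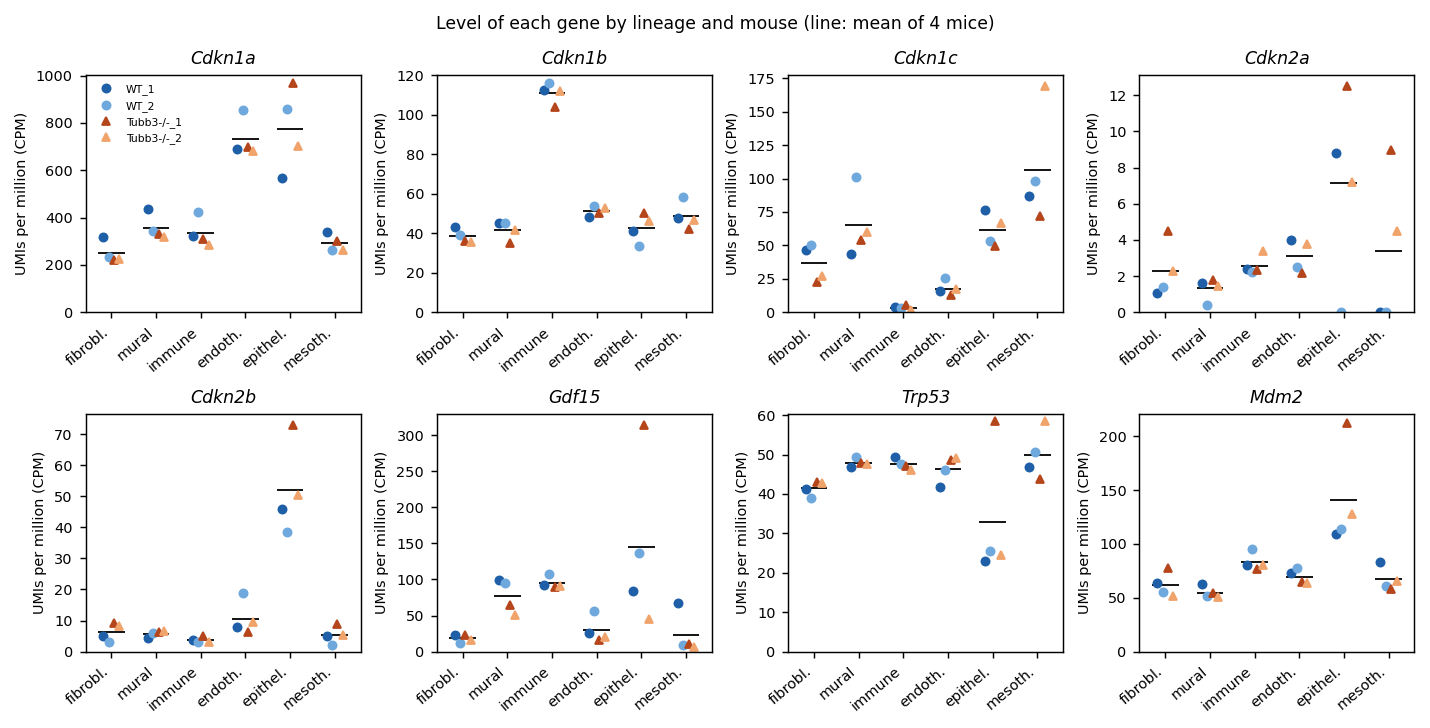
Level of each of the 8 genes in CPM (linear axis from 0) by lineage; each point is 1 mouse (circles WT, triangles Tubb3-/-) and the line is the mean of 4 mice. *Cdkn1a* is high in epithelial (568 to 967) and endothelial sums (683 to 857), *Cdkn1b* stands out in immune sums, *Cdkn2b* and *Mdm2* in epithelial sums, and *Trp53* differs little between lineages.

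*Cdkn1a* (chr17:29090976-29100727), which encodes the p21 inhibitor, was highest in epithelial cells at 774 ± 175 CPM (SD, n = 4) and in endothelial cells at 732 ± 83.2 CPM. Epithelial cells held 568, 859, 967 and 703 CPM in WT 1, WT 2, Tubb3-/- 1 and Tubb3-/- 2, the order of mice used throughout. Endothelial cells held 690, 857, 700 and 683 CPM, within the epithelial range and above each mouse's value in the other 4 lineages. Mural (357 ± 55.1), immune (335 ± 61.4), mesothelial (292 ± 35.4) and fibroblast sums (249 ± 46.9) followed, and the ranges of neighbors in this order overlapped. The contrast was log2 1.02 (SE 0.11, edgeR adjusted p = 6.93e-08) for epithelial, 0.84 (SE 0.11, adjusted p = 9.31e-07) for endothelial cells and -0.71 for fibroblasts. In the whole-cell pool alone mesothelial cells were too few to enter, so every contrast in that pool was against the mean of only 4 others. The epithelial contrast for *Cdkn1a* was 0.30 there, with an edgeR adjusted p of 0.0783.

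*Cdkn1b*, the p27 gene and an inhibitor linked to quiescent cells, was present in every lineage and highest in the immune cells. Their sums held 113, 116, 104 and 112 CPM, and every other sum lay between 33.5 and 58.2 CPM. The immune contrast was log2 1.48 (SE 0.07, edgeR adjusted p = 1.25e-14), and the contrasts of fibroblasts (-0.35), mural (-0.31), epithelial (-0.41) and mesothelial cells (-0.26) were called lower. The mesothelial *Cdkn1b* call was lost with RLE scaling (adjusted p = 0.113) and without any 1 of the mice except WT 2. A UMI of *Cdkn1b* was found in 55.3 to 60.7% of immune cells and, after each cell was thinned to 2000 UMIs, in 23.3 to 24.3% of them, with 0 to 37 cells per mouse and lineage left out as shallower. In the other lineages the thinned shares were 5.99 to 19.5%.

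*Cdkn1c* (chr7:143458339-143461050), the imprinted p57 gene, had the widest spread across lineages. Mesothelial cells held 86.6, 98.1, 71.7 and 169 CPM, mural cells 43.9, 101, 54.3 and 60.1 CPM, and immune cells 4.13, 3.01, 5.20 and 1.64 CPM. The mean of mesothelial cells was 30.5 times that of immune cells, and immune cells lay below every other lineage in each mouse. Epithelial (61.5 ± 12.5) and fibroblast sums (36.6 ± 13.9) lay between, and endothelial cells were low at 17.8 ± 5.58 CPM. The contrasts were log2 1.94 (SE 0.23, edgeR adjusted p = 3.50e-07) for mesothelial, 1.29 for mural, 1.10 for epithelial, -1.15 for endothelial and -3.55 for immune cells. An antisense gene, Gm44732, overlaps *Cdkn1c* on the opposite strand, as AC167363.2 does *Cdkn1a*, and 0 genes overlap either on the same strand. Whether reads of the opposite strand entered these counts was not tested.

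Of the INK4 genes, *Cdkn2b*, which encodes p15, was highest in the epithelial sums. It was at 46.1, 38.6, 73.0 and 50.4 CPM in epithelial cells and at 2.03 to 18.8 CPM in all other sums, so that no other sum reached the lowest epithelial one. The contrast was log2 3.03 (SE 0.24, edgeR adjusted p = 3.60e-10). *Cdkn2a* was low everywhere, from 0 to 12.5 CPM. Its highest mean was also epithelial, at 8.80, 0, 12.5 and 7.20 CPM, which rested on 13, 0, 18 and 10 UMIs. The *Cdkn2a* contrast of 1.44 (SE 0.48, adjusted p = 0.0143) was lost without WT 1, without Tubb3-/- 1, without Tubb3-/- 2 or in the whole-cell pool alone. The mural contrasts of *Cdkn2a* (-1.22, adjusted p = 0.0138) and *Cdkn2b* (-0.61, adjusted p = 0.0439) were both lost without either Tubb3-/- mouse, and that of *Cdkn2b* also without WT 1 (0.166) or with 2 UMIs of a marker asked for (0.0533). In the whole-cell pool alone, which holds few of the mural cells (4099 of 4541 came from the enriched pool), the *Cdkn2a* call was lost too (-0.90, 0.306), while *Cdkn2b* was lower in immune cells at -1.23. With 0 UMIs in WT 2 epithelium and in both WT mesothelial sums, *Cdkn2a* was not detected at this depth there.

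*Gdf15* (chr8:70629393-70632456), which encodes a secreted member of the TGF-β superfamily, was uneven between mice in some lineages. Epithelial cells held 84.0, 136, 314 and 45.3 CPM, whereas immune cells were even at 92.2, 108, 89.6 and 91.4 CPM. Mural cells held 98.7, 94.8, 64.1 and 50.1 CPM, and endothelial (29.5 ± 17.9), mesothelial (23.4 ± 29.6) and fibroblast sums (18.2 ± 5.04) were lower. The contrasts were log2 1.76 (SE 0.34, edgeR adjusted p = 0.000119) for epithelial, 1.41 for immune and 0.87 for mural cells, and -1.01, -1.57 and -1.47 for endothelial cells, mesothelial cells and fibroblasts. Without Tubb3-/- 1 the epithelial *Gdf15* contrast was 1.02 (adjusted p = 0.0217), and in the whole-cell pool alone the mural one was 0.25 (adjusted p = 0.591). The mural *Gdf15* call was also lost without WT 2 (0.0520) or Tubb3-/- 2 (0.0590), the endothelial one without WT 1 (0.128), Tubb3-/- 1 (0.114) or Tubb3-/- 2 (0.0664), and the mesothelial one without WT 2 (0.103) or Tubb3-/- 2 (0.0870), while without WT 1 the mesothelial contrast was -2.80.

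*Trp53* (chr11:69580359-69591873) was almost flat across the lineages, with its lowest mean in epithelial (32.8 CPM) and its highest in mesothelial cells, at 46.8, 50.8, 43.9 and 58.6 CPM. In mural cells it held 46.8, 49.3, 47.9 and 47.6 CPM. The epithelial sums were 23.0, 25.5, 58.4 and 24.5 CPM, with 3 mice below and 1 above the values of most other sums, and the contrast was log2 -0.60 (SE 0.14, edgeR adjusted p = 0.00102), or -0.99 without Tubb3-/- 1. In immune cells the *Trp53* contrast was 0.30 (adjusted p = 0.0122), and 0.25 (0.0772) without WT 1. *Mdm2* (chr10:117688875-117710758) was highest in epithelial cells at 109, 114, 213 and 127 CPM, above the 50.7 to 95.3 CPM of all other sums, with a contrast of 0.98 (SE 0.12, adjusted p = 3.22e-07). The smaller *Mdm2* contrasts were 0.34 in immune, -0.48 in mural, -0.29 in endothelial and -0.37 in mesothelial cells, and the call was lost in immune cells without Tubb3-/- 2 (0.0513), in endothelial cells without any 1 mouse except WT 2 and in mesothelial cells without any 1 of the 4. In epithelial cells the transcripts of the p53 targets *Cdkn1a*, *Mdm2* and *Gdf15* were thus higher, and that of *Trp53* itself lower, than the mean of the other lineages, although in the whole-cell pool alone the *Cdkn1a* and *Gdf15* calls were lost. Tubb3-/- 1 was the highest of the 4 epithelial sums for each of the 8 genes except *Cdkn1c*.

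Of 26 other p53 targets, 15 were called higher and 5 lower in epithelial cells, where 57.3% of all genes were called (4606 higher and 4763 lower of 16365), with a median log2 contrast of 0.73 against -0.08 over all genes. *Ddit4l* (3.24) and *Epha2* (2.91) were highest, and *Fas*, a death receptor gene, and *Sesn1*, a stress sensor, fell by 1.37 and 1.14 on the log2 scale. In the other 5 lineages, 7 to 9 of the 26 were called higher and 6 to 12 lower, with medians of -0.24 to 0.14, beside the 41.2 to 75.2% of all genes called there. The other 3 CDK inhibitors, *Cdkn2c*, *Cdkn2d* and *Cdkn3*, were called lower in epithelial cells in 3 of 3 cases, with a median of -1.86. Of 16 CDK, cyclin and RB genes, 1 was called higher in epithelium (*Ccnd1*, the cyclin D1 gene, 1.96) and 9 lower (*Cdk6* the lowest, -1.94).

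The genes whose CPM ran most closely with each of the 8 were found by Pearson's r of log2(CPM + 1) over the 24 sums, among 9939 genes averaging 10 CPM or more. The 24 sums share mice, libraries and lineages, so these r are descriptions. *Cdkn1b* was most like *Ms4a6b* (0.97), *Gpcpd1* (0.97) and *Syk* (0.97). *Cdkn1c* was most like *Dag1* (0.95), *Nbeal1* (0.94) and *Enpp5* (0.94), and *Cdkn1a* like *Ctnnb1* (0.94), *Ralgapa2* (0.93) and *Rasgrf2* (0.93). *Cdkn2b* was followed by *Paip2* (0.94), *Yipf6* (0.93) and *Ak7* (0.93), and *Mdm2* by *Arfgef2* (0.89) and *Cecr2* (0.87). *Trp53* (*Sdad1* 0.87, *Eif2a* 0.80, *Tma16* 0.80) and *Gdf15* (*Dgkd*, *Esd* and *Grk3*, each 0.81) had looser partners, and *Cdkn2a* was below the level needed.

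Between genotypes, edgeR called none of the 8 genes in any lineage when the 4 mice were compared without pairing. The test compared 2 Tubb3-/- with 2 WT sums per lineage, with p-values adjusted over every gene tested (Benjamini-Hochberg). It called 0 of 8 genes in fibroblasts, mural, immune, endothelial and epithelial cells, where it called 0% of all genes in each, and 0 of the 6 tested in mesothelial cells, where 0.356% of all genes were called. At an unadjusted p under 0.05 there were 3 of the 8 in fibroblasts (and 2671 of all 14783 genes), 2 in mural cells (1613), 1 in endothelial cells (1728), 1 in mesothelial cells (819) and 0 in immune (1179) and epithelial cells (444). DESeq2 called 492 genes in fibroblasts, 156 in mural, 62 in immune, 122 in endothelial, 2 in epithelial and 36 in mesothelial cells, and among the 8 it called *Cdkn1c* in fibroblasts and *Gdf15* in mural cells. An exact permutation test of 2 against 2 mice cannot go below p = 0.333.

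**Figure D2:**
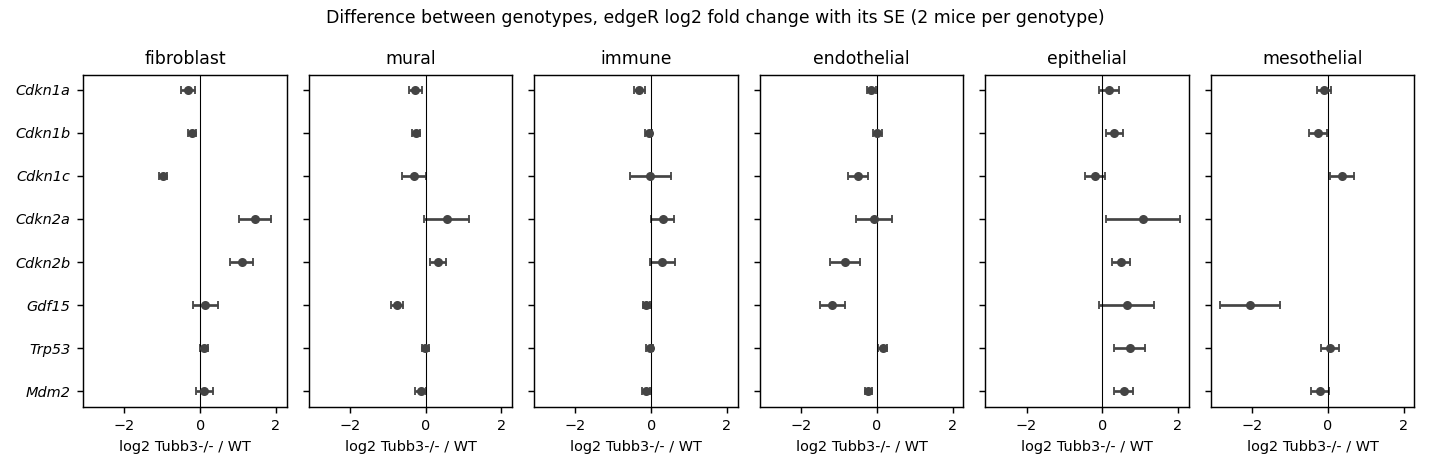
Difference between genotypes for each gene and lineage as the edgeR log2 fold change of Tubb3-/- over WT (points) with its SE (bars), 2 mice per genotype; *Cdkn2a* and *Cdkn2b* were not tested in mesothelial cells. In fibroblasts *Cdkn1c* lies at -0.97 and *Cdkn2a* and *Cdkn2b* at 1.45 and 1.10, and no difference passed the adjusted threshold.

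In fibroblasts *Cdkn1c* was lower, and *Cdkn2a* and *Cdkn2b* higher, in both Tubb3-/- than in both WT mice, without a call in the unpaired edgeR test. *Cdkn1c* held 46.5 and 50.5 CPM in WT and 22.8 and 26.8 CPM in Tubb3-/- fibroblasts, with no overlap. The genotypes did not overlap, in either direction, for 48.1% of all 14783 genes tested there. Its log2 difference was -0.97 (SE 0.10), with an edgeR adjusted p of 0.0736 and a DESeq2 adjusted p of 2.48e-05. *Cdkn2b* held 5.10 and 2.93 CPM in WT and 9.23 and 8.18 CPM in Tubb3-/- mice, and *Cdkn2a* 1.09 and 1.39 against 4.47 and 2.27 CPM. These gave differences of 1.10 (SE 0.30, adjusted p = 0.170) and 1.45 (SE 0.43, adjusted p = 0.188), the latter on 16, 19, 95 and 43 UMIs. *Cdkn1a* held 319, 233, 219 and 225 CPM, with WT 1 alone above the rest, and differed by -0.33 (SE 0.19, adjusted p = 0.411). *Trp53* (0.10), *Mdm2* (0.11), *Gdf15* (0.14) and *Cdkn1b* (-0.21) differed by less than these.

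*Gdf15* was the gene with the lowest p in the vascular and mesothelial lineages. In mural cells, at the values given above, both WT mice lay above both Tubb3-/- mice, with a log2 difference of -0.76 (SE 0.16, edgeR adjusted p = 0.200). The genotypes lay apart, in either direction, for 41.1% of all genes tested in mural cells. In endothelial cells it held 25.3 and 55.8 CPM in WT and 16.6 and 20.4 CPM in Tubb3-/- mice, a difference of -1.17 (SE 0.32, adjusted p = 0.206). The mesothelial difference of -2.06 (SE 0.79, adjusted p = 0.460) came with 1 mouse far from the rest, at 67.7 CPM in WT 1 against 8.80 in WT 2 and 10.7 and 6.31 in Tubb3-/- mice. In these mesothelial sums 3 of 5 fibroblast markers and 1 of 4 tested epithelial markers were called higher in Tubb3-/- mice, and their part in the result was not tested. In immune cells *Gdf15* differed by -0.13 (SE 0.10, adjusted p = 0.751).

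The epithelial differences were above 0 for 7 of the 8 genes, and none passed the test. *Mdm2* differed by log2 0.56 (SE 0.24), *Trp53* by 0.72 (SE 0.40), *Cdkn2b* by 0.49 (SE 0.24) and *Cdkn2a* by 1.07 (SE 0.97), each with an edgeR adjusted p of 0.979. Tubb3-/- 1 supplied the top value of each, and for *Cdkn1a*, *Cdkn2a*, *Trp53* and *Gdf15* the value of Tubb3-/- 2 lay within or below the WT range. In endothelial cells *Cdkn2b* (7.99, 18.8, 6.17 and 9.47 CPM) differed by -0.85 (SE 0.39, adjusted p = 0.409), with overlapping groups.

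Whether a genotype difference in 1 lineage departed from the mean of the other 5 was tested as an interaction in the joint fit of 17482 genes. It called 0 of 8 genes in all 6 lineages. Over all genes it called 0% for endothelial, epithelial and mural cells, 0.0229% for fibroblasts, 0.0572% for immune and 0.0172% for mesothelial cells. At an unadjusted p under 0.05 there were 2 of the 8 in fibroblasts (*Cdkn1c* and *Cdkn2b*), 2 in endothelial (*Cdkn2a* and *Cdkn2b*), 3 in epithelial (*Cdkn1b*, *Mdm2* and *Trp53*), 1 in mesothelial (*Cdkn2a*) and 0 in immune and mural cells. For *Cdkn2b* the interaction was log2 0.84 (SE 0.39, adjusted p = 0.845) in fibroblasts and -1.51 (SE 0.43, adjusted p = 0.442) in endothelial cells. The endothelial *Cdkn2a* interaction was -2.50 (SE 1.10), although the genotype difference within endothelial cells was only -0.08 (SE 0.48). The other 5 lineages there included mesothelial cells, with 0, 0, 10 and 5 UMIs of *Cdkn2a* and an interaction of 7.88 (SE 3.03).

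The p53 targets outside the 8 were called between genotypes in no lineage by edgeR, with 23 to 26 of 26 genes tested. At an unadjusted p under 0.05 there were 9 of 26 in mural cells (1613 of all 14478 genes), 6 of 26 in fibroblasts (2671 of 14783), 4 of 24 in endothelial (1728 of 12737), 4 of 26 in epithelial (444 of 10422), 1 of 25 in immune (1179 of 14085) and 1 of 23 in mesothelial cells (819 of 9540). The median log2 difference was -0.11 in fibroblasts and in mural cells, -0.14 in endothelial, 0.05 in immune, 0.44 in epithelial and -0.17 in mesothelial cells, with all-gene medians between -0.01 and 0.01. *Fas* held 149 and 129 CPM in WT and 87.7 and 81.5 CPM in Tubb3-/- fibroblasts, and *Ddit4l* 1.97 and 0.513 against 3.53 and 2.75 CPM. In mural cells *Plk3*, a stress kinase gene, held 9.95 and 13.0 against 5.78 and 5.84 CPM, and *Pmaip1*, which encodes the pro-apoptotic protein Noxa, 1.02 and 3.21 against 0.782 and 0.511 CPM. In epithelial cells *Pmaip1* held 2.03 and 1.46 against 14.6 and 70.5 CPM. The WT epithelial sums held only 1476650 and 1373355 UMIs, so these WT values rest on a few UMIs, and the Tubb3-/- mice differed widely. Each single gene given by value here was picked because its genotypes lay apart, as 34.2 to 48.1% of all genes did by lineage. Among the 11 p53 regulators and DNA damage kinases and the 16 CDK, cyclin and RB genes no call was made either. *Ccna2*, the cyclin A2 gene of S and G2 phase, held 2.22 and 4.52 CPM in WT and 16.2 and 13.4 CPM in Tubb3-/- endothelial cells, and *Cdkn3* 0.586 and 0.770 against 3.49 and 3.80 CPM in mural cells.

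Fibrotic fibroblasts of the injured lung are marked by *Cthrc1*, and the INK4 genes were higher per UMI in the fibroblasts that held it. Fibroblasts with 1 or more UMIs of *Cthrc1* were set against the other fibroblasts of the same mouse. They made up 21.1 and 17.4% of WT and 31.9 and 29.1% of Tubb3-/- fibroblasts, and had medians of 14946 to 20990 UMIs per cell against 14635 to 18402 in the others. edgeR called 3 of 8 genes, with 11.6% of all genes called. Most *Cthrc1* cells held no UMI of an INK4 gene. *Cdkn2a* was found in 4.37, 3.87, 8.90 and 6.69% of them and in 0.543 to 1.95% of the other fibroblasts. *Cdkn2b* was found in 12.6, 6.45, 21.1 and 20.1% of them and in 2.45 to 4.59% of the others. Of the lineage markers, 2 of 6 mural ones were called higher and 3 of 5 tested immune ones lower in the *Cthrc1* cells, and their part in the results was not tested.

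*Cdkn2b* held 14.7, 8.08, 20.9 and 19.4 CPM in the *Cthrc1* cells and 2.06, 1.72, 2.78 and 2.68 CPM in the others. All 4 mice showed the rise, and the ranges lay well apart, with a log2 difference of 2.82 (SE 0.17, edgeR adjusted p = 1.43e-05). *Cdkn2a* held 3.38, 5.00, 9.38 and 6.08 CPM against 0.358, 0.543, 1.76 and 0.394 CPM, a difference of 3.05 (SE 0.30, adjusted p = 0.000277), on 12, 13, 71 and 38 UMIs in the *Cthrc1* cells and 4, 6, 24 and 5 outside. *Cdkn1a* went the other way, from 344, 243, 255 and 243 CPM outside to 240, 194, 155 and 188 CPM in the *Cthrc1* cells, a difference of -0.44 (SE 0.07, adjusted p = 0.00299). *Cdkn1c* differed by -0.23 (adjusted p = 0.0519) and was lower in all 4 mice, and *Trp53* by 0.21 (adjusted p = 0.0797).

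**Figure D3:**
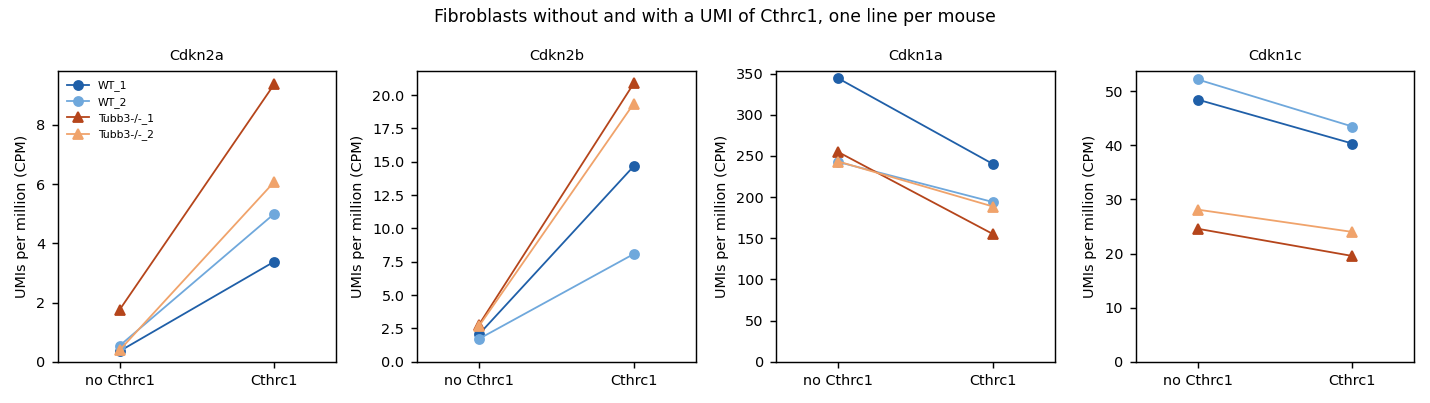
Level in CPM (linear axes from 0) in fibroblasts without and with a UMI of *Cthrc1*, 1 line per mouse (circles WT, triangles Tubb3-/-). *Cdkn2a* and *Cdkn2b* rise in all 4 mice, and *Cdkn1a* falls in all 4. *Cdkn1c* lies apart between the genotypes on both sides of the split, but edgeR called no genotype difference on either side. Over all fibroblasts, 48.1% of the genes tested had the genotypes apart.

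The share of *Cthrc1* cells was larger in the Tubb3-/- mice, and its part in the genotype values of all fibroblasts was not tested. Within *Cthrc1* cells alone the Tubb3-/- over WT difference was log2 0.81 for *Cdkn2b* (edgeR adjusted p = 0.273), 0.95 for *Cdkn2a* (adjusted p = 0.330) and -0.91 for *Cdkn1c* (adjusted p = 0.113). In the fibroblasts without *Cthrc1* it was 0.50 for *Cdkn2b* (adjusted p = 0.464) and -0.96 for *Cdkn1c* (adjusted p = 0.0660), and *Cdkn2a* had too few UMIs to be tested. Of the p53 targets, 1 of 26 was called higher in *Cthrc1* cells (*Bbc3*, 0.54) and 3 lower, among them *Trp53inp1* (-0.45), with a median of -0.08 against -0.01 over all genes. *Ccnd1*, a partner of the kinases that INK4 proteins bind, was called higher (0.65, adjusted p = 0.00129).

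Within the mural lineage *Cdkn1c* was far higher per UMI in the pericytes. Mural cells with more *Higd1b* than *Myh11* UMIs (pericytes; 36, 80, 63 and 60 cells) were set against those with *Myh11* and no *Higd1b* (688 to 1195 cells), a rule chosen after seeing the data because the planned split left 5 to 16 pericytes per mouse. edgeR called 3 of 7 genes tested, with 36.6% of all genes called. *Cdkn1c* held 752, 746, 826 and 666 CPM in pericytes and 22.2, 22.8, 17.3 and 22.3 CPM in the *Myh11* cells, a log2 difference of 4.99 (SE 0.16, adjusted p = 4.99e-16). The pericyte level is above every lineage sum of the gene, and the 4 mice of both genotypes lay close together. The gene was not confined to them: of 600, 790, 903 and 824 mural UMIs of *Cdkn1c*, pericytes held 204, 464, 486 and 403 and the *Myh11* cells 282, 152, 260 and 272. *Cdkn1a* was lower in pericytes, at 335, 109, 119 and 99.1 CPM against 442, 363, 349 and 336 CPM (-1.51, SE 0.18, adjusted p = 6.82e-07). *Gdf15* was lower at 84.7, 29.0, 56.1 and 46.2 CPM against 99.4, 101, 65.6 and 50.03 CPM (-0.73, SE 0.22, adjusted p = 0.0102), and without WT 2 that difference was -0.37 (adjusted p = 0.158). Pericytes were 2.92, 10.4, 5.13 and 5.71% of the cells on the 2 sides of the split, and WT 2, with the largest share, also had the highest mural *Cdkn1c*.

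In epithelium, *Cldn4*, a claudin gene known from the transitional state between type II and type I alveolar cells, marked 18, 12, 23 and 20 cells per mouse, so that the comparison was allowed only after seeing the data with a minimum of 10 cells. The split took all *Epcam* cells and was not confined to alveolar ones. The epithelial sums held 82943, 18024, 67143 and 88945 CPM of the airway gene *Scgb1a1*. They held 51200, 99288, 30580 and 43856 CPM of the type II cell gene *Sftpc*. The part of this mix in the split, and in the epithelial contrasts and genotype differences above, was not tested. In the split edgeR called 2 of 7 genes tested, with 10.6% of all genes called. *Trp53* held 42.2, 50.1, 97.6 and 50.9 CPM in *Cldn4* cells and 16.4, 20.8, 41.1 and 13.3 CPM in the others, a log2 difference of 1.47 (SE 0.25, adjusted p = 0.0112), on 11 to 43 UMIs per *Cldn4* sum. *Cdkn1a* held 881, 1279.9, 1133 and 1195 CPM against 459, 779, 894 and 495 CPM (0.86, SE 0.18, adjusted p = 0.0182). Both were higher in all 4 mice, and both calls were lost without Tubb3-/- 2 (adjusted p = 0.0573 for *Trp53* and 0.0958 for *Cdkn1a*). *Trp53* also lost its call without Tubb3-/- 1 (0.0543) and *Cdkn1a* without WT 1 (0.0819). *Mdm2* differed by 0.64 (SE 0.21, adjusted p = 0.0859) and *Gdf15* by 0.85 (SE 0.36, adjusted p = 0.151), and *Cdkn2b* held 54.7 to 70.4 CPM inside and 35.5 to 74.2 CPM outside. Of the other p53 targets, 7 of 23 tested were called higher and 0 lower, with a median of 0.71 against -0.00 over all genes. *Phlda3*, an inhibitor of Akt, held 224, 332, 372 and 225 CPM against 70.2, 114, 219 and 112 CPM (1.28, adjusted p = 0.00724), and *Plk2* differed by 1.25 (adjusted p = 0.0316).

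In endothelium, *Ntrk2* marks capillary cells activated after injury. Cells with a UMI of it made up 30.3 and 18.3% of WT and 50.5 and 44.6% of Tubb3-/- endothelial cells, with medians of 6568 to 8558 UMIs against 5008.5 to 7674.5 in the others. edgeR called 2 of 7 genes tested, with 7.58% of all genes called. *Cdkn1a* held 857, 929, 761 and 743 CPM in *Ntrk2* cells and 604, 835, 625 and 630 CPM in the others (log2 0.32, SE 0.07, adjusted p = 0.0218). *Gdf15* held 10.5, 14.4, 11.8 and 16.4 CPM against 32.9, 68.0, 22.5 and 23.97 CPM (-1.16, SE 0.24, adjusted p = 0.0165), lower in 4 of 4 mice. Both calls were lost when each cell took the lineage of its highest marker (adjusted p = 0.0562 for *Cdkn1a* and 0.0709 for *Gdf15*) and without WT 1 (0.0909 and 0.0773), and that of *Cdkn1a* also without either Tubb3-/- mouse. Tubb3-/- endothelium thus held more of the cells in which *Gdf15* was low, and the part of this in its genotype difference was not tested.

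**Figure D4:**
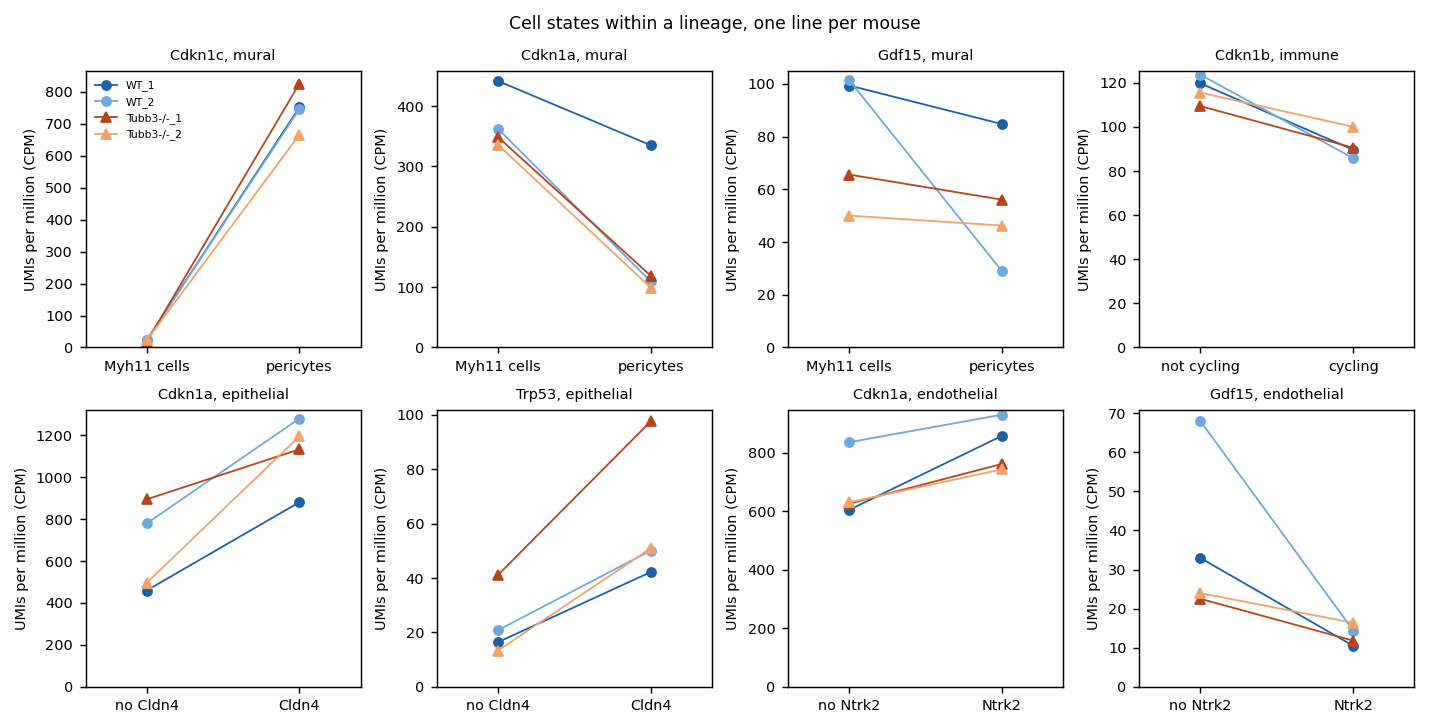
Levels in CPM (linear axes from 0) of the genes called in other cell states, 1 line per mouse (circles WT, triangles Tubb3-/-). Top, mural *Myh11* cells and pericytes and immune cells without and with a UMI of *Mki67* or *Top2a* (cycling); bottom, epithelial cells without and with *Cldn4* and endothelial cells without and with *Ntrk2*. *Cdkn1c* in pericytes lies between 666 and 826 in all 4 mice.

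Cycling cells were those with 1 or more UMIs of *Mki67* or *Top2a*, and inhibitors were compared between them and the other cells of their lineage. In immune cells *Cdkn1b* alone was called, 1 of 8 genes with 21.3% of all genes called, at 89.6, 85.8, 90.6 and 100.1 CPM in cycling cells against 120, 124, 109 and 116 CPM in the rest (log2 -0.34, SE 0.07, edgeR adjusted p = 0.0118). It was lower in 4 of 4 mice. Cycling immune cells had medians of 14511 to 18682 UMIs per cell against 6058.5 to 6506.5 in the others. In cycling fibroblasts 0 of 8 genes were called by edgeR, with 4.38% of all genes called, and 5 had an unadjusted p under 0.05. Of these, *Cdkn2a* held 5.49, 1.59, 11.6 and 5.06 CPM against 0.797, 1.38, 3.88 and 2.02 CPM (1.58, SE 0.42, adjusted p = 0.0512), on 1 to 19 UMIs per cycling sum, and *Trp53* 54.9, 62.1, 59.6 and 46.1 against 40.2, 37.8, 41.7 and 42.5 CPM (0.42, SE 0.12, adjusted p = 0.0707).

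In cycling mural cells 0 of 7 genes tested were called, with 1.24% of all genes called and 0 of the 7 at an unadjusted p under 0.05. In cycling endothelial cells, compared at a minimum of 10 cells set after seeing the data, 0 of 7 were called by edgeR, with 4.37% of all genes called and 3 of the 7 at an unadjusted p under 0.05. Macrophages with *Cd68* and *Arg1*, under the same minimum, had 0 of 6 genes called against those with *Cd68* alone, with 4.58% of all genes called and 1 of the 6 at an unadjusted p under 0.05 (*Cdkn1b*, -0.48, SE 0.16, adjusted p = 0.117). DESeq2 was not run on these splits within a lineage or on the interaction. Cycling epithelial and mesothelial cells were too few to test.

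Of the CDK inhibitor genes outside the 8, *Cdkn2c*, *Cdkn2d* and *Cdkn3* were called higher in 3 of 3 cases in cycling fibroblasts, immune and endothelial cells. The median log2 differences were 1.05, 1.45 and 3.38, where 4.38, 21.3 and 4.37% of all genes were called. Since *Mki67* and *Top2a* set the split, a rise of other genes of dividing cells is not independent of it. In cycling mural cells 2 of the 3 could be tested and 0 were called by edgeR, although both had an unadjusted p under 0.05 (lowest adjusted p = 0.0523). *Cdkn3*, a phosphatase gene known to be expressed in dividing cells, held 17.6, 11.1, 63.3 and 25.9 CPM in cycling fibroblasts and 0.384 to 0.970 CPM in the others (5.20, SE 0.33, adjusted p = 3.22e-07). In cycling immune cells, where 21.3% of all genes were called (1280 higher and 1395 lower of 12557), 11 of 16 CDK, cyclin and RB genes were called higher and 1 lower. Of 24 p53 targets tested there, 0 were called higher and 4 lower, no larger a share than that of all genes, among them *Fas* (-0.59) and *Sesn1* (-0.57).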

How the data were processed

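Single-cell 3′ RNA-seq of lung cells came from 4 mice, each with a whole-cell and a mural cell-enriched library tagged by CellPlex. The authors deposited UMI counts per gene and cell, made with Cell Ranger 7.1.0 on mm10 per the labels, already assigned to mice. Cells with under 200 or over 7500 genes or over 15% mitochondrial UMIs were left out. UMIs were summed per mouse and lineage over both pools, with at least 20 cells per mouse in a sum. Levels are CPM, a gene's UMIs per 1000000 UMIs of the sum. Sums were tested with edgeR 4.0.16 (quasi-likelihood test, filterByExpr, TMM, Benjamini-Hochberg adjusted p under 0.05 over all genes tested) in R 4.3.3. Genotype fits held the 4 sums of a lineage. Lineage contrasts and the interaction used all 24 sums, and splits within a lineage were paired by mouse. DESeq2 1.42.0 was an alternative for genotype. P-values of the genotype fits rest on the spread between mice of a genotype. Those of the contrasts, interaction and splits rest on the spread left once mouse was a block. All cover these 4 mice only. Only the unpaired edgeR genotype fit was tried on simulated counts, at a fixed dispersion, and the other fits were not.

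The 8 genes and the pathway lists were chosen with earlier results of these data known. All 8 are described, with the 3 genes of most similar level for each but *Cdkn2a*, of which 1 is not reported here. From each list, those called genes that rose or fell most were named, or, where none was called, those of largest difference with the genotypes apart. By lineage, 34.2 to 48.1% of all genes tested had the genotypes apart. *Ccnd1* in *Cthrc1* cells and other single genes named in a split follow the same rule. Alternatives were RLE scaling, no low-count filter, DESeq2, a replicate block, each pool alone, 2 UMIs of a lineage marker, the lineage of the highest marker, doublets removed, cycling or *Cthrc1* cells removed, and each mouse left out. Scrublet's automatic threshold marked 0.0777% of whole-pool cells, so the top 5% of scores per pool were removed instead. The larger-marker pericyte rule and the minimum of 10 cells were chosen after seeing the data. Promoter sequences are RefSeq's for GRCm38.p6, where *Cdkn1c* had no entry in the table used.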

Additional observations from a re-analysis of the deposited data

Results flagged for a closer look

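In 5 of 48 groups of 4 mice (8 genes in 6 lineages), 1 mouse lay so far from the other 3 that its gap, as a share of the whole range, exceeded Dixon's critical ratio for 4 values. Chance alone gives this in about 1 of 20 groups. *Cdkn1a* was at 319 CPM in the fibroblasts of WT 1 and at 219 to 233 CPM in the other mice. *Cdkn1a* in the endothelial cells of WT 2 was at 857 CPM, against 683 to 700 CPM. *Gdf15* reached 108 CPM in the immune cells of WT 2, against 89.6 to 92.2 CPM. In mesothelial cells *Gdf15* was at 67.7 CPM in WT 1, on 68 UMIs, against 6.31 to 10.7 CPM. *Trp53* in the epithelial cells of Tubb3-/- 1 was at 58.4 CPM, on 84 UMIs, against 23.0 to 25.5 CPM.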

How the results depend on the processing

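The 8 genes' calls in the lineage contrasts and splits were recomputed under 403 alternatives: 347 kept direction and call, 56 kept direction and lost the call, and 0 reversed. The 3 genes called in *Cthrc1* fibroblasts were called under every alternative run, joined by *Trp53* with the lineage of the highest marker. Of 275 recomputed counts of called genes, 225 stayed within 1.5 times of the reported count, not all of them unchanged. A further 16 were lower and 34 higher by over 1.5 times, and the cause was not tested. Without the low-count filter the genotype count was 1 in endothelial, 2 in mesothelial and 1 in mural cells, the interaction count 1 each in endothelial, epithelial and fibroblast cells, and the split counts 1 (*Arg1*), 4 (*Cldn4*), 4 (*Ntrk2*), and 1, 1 and 2 in cycling endothelial, fibroblast and immune cells. DESeq2 gave 1 in fibroblasts and 1 in mural cells. With the lineage of the highest marker, counts were 5 for the fibroblast contrast, 4 (*Cldn4*), 0 (*Ntrk2*), and 3 and 3 in cycling fibroblasts and immune cells. The whole-cell pool alone gave 5 for the epithelial and 5 for the fibroblast contrast, 2 UMIs of a marker gave 2 for the endothelial and RLE scaling 3 for the mesothelial one. Leaving out 1 mouse gave genotype counts of 0 to 2 in fibroblasts and mural cells and 0 to 1 in immune, endothelial and mesothelial cells, 0 to 1 for the endothelial interaction, 2 to 4, 3 to 5, 2 to 4 and 3 to 6 for the endothelial, fibroblast, mesothelial and mural contrasts, and 0 to 3 (*Cldn4*), 0 to 3 (*Ntrk2*) and 0 to 1 (cycling fibroblasts).

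Replicate numbers are shared by the genotypes, but nothing says that they pair the mice. Over the genes tested, the difference between the WT mice was correlated with that between the Tubb3-/- mice, each taken in the same replicate order. The r was 0.293, 0.226, 0.183, 0.110, 0.0734 and 0.117 in fibroblast, mural, immune, endothelial, epithelial and mesothelial sums. With a replicate block, 3 genes were called in fibroblasts (adjusted p 0.00147 for *Cdkn1c*, 0.0159 for *Cdkn2b* and 0.0471 for *Cdkn2a*), 1 in mesothelial and 1 in mural cells (*Gdf15*, 8.80e-05 and 0.00403). Over all genes, the genotype counts ranged up to 1565, 862, 910, 492 and 162 in fibroblast, mural, endothelial, immune and epithelial cells, against 0 in each as reported, and from 4 to 348 in mesothelial cells, against 34. Without the low-count filter, interaction counts were 173, 148, 135, 165, 150 and 60 in endothelial, epithelial, fibroblast, immune, mesothelial and mural cells, against 0, 0, 4, 10, 3 and 0. Thinning to 2000 UMIs moved 45 of 48 shares of cells. Epithelial and mesothelial sums, and *Cdkn2a* throughout, rest on few UMIs. Immune genotype in the mural pool, mesothelial genotype and contrast in the whole-cell pool and the planned pericyte split were not run, with too few cells. The same held for cycling epithelial and mesothelial cells.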

Other observations

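Further gene lists were read between genotypes, without a call by edgeR in any lineage. Among integrated stress response genes in fibroblasts, *Ppp1r15a*, the phosphatase subunit that reverses eIF2α phosphorylation, held 179 and 181 CPM in WT and 91.1 and 83.1 CPM in Tubb3-/- mice (log2 -1.05, SE 0.10, edgeR adjusted p = 0.0736). *Slc7a11*, the cystine transporter gene, held 23.5 and 17.7 against 11.1 and 12.8 CPM there (-0.80, SE 0.19, adjusted p = 0.140). Among senescence-associated genes, the cytokine gene *Il6* held 664 and 312 CPM in WT and 249 and 207 CPM in Tubb3-/- fibroblasts, and the chemokine gene *Cxcl1* 1020.4 and 378 against 289 and 259 CPM. WT 1 was the highest mouse for both, and their adjusted p-values were 0.216 and 0.218. In endothelial cells *Hmgb2*, a chromatin protein gene high in dividing cells, held 134 and 104 CPM in WT and 281 and 230 CPM in Tubb3-/- mice (1.13, SE 0.17, adjusted p = 0.0753). Cycling cells were 2.95 and 4.81% of WT and 14.3 and 10.5% of Tubb3-/- endothelial cells, and their part in that value was not tested.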
